A study of Mus musculus with 12 samples.

Results

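Heart mRNA from mice that carry a MYBPC3 deletion was compared with heart mRNA from mice without it, whatever their HRC genotype. The members are samples, chosen by genotype label alone: 6 deletion carriers and 6 non-carriers, which together are all 12 samples of the series. The carriers were 3 mice homozygous for the 25 bp deletion in MYBPC3 and 3 compound mice that are homozygous for the same deletion and heterozygous for the HRC variant S96A. The non-carriers were 3 nontransgenic mice and 3 mice heterozygous for HRC S96A. All mice were 6 months old and of a background that the labels name only as C57BL. The nontransgenic and the deletion group each held 2 males and 1 female, and the HRC variant and compound groups held 3 females each, so each side of the comparison had 2 males and 4 females. The series describes the mice as transgenic models. The sources used here do not state how the deletion and the variant were introduced or whether one founder gave rise to each line. Beyond the labels nothing says that each replicate is another mouse, and the p-values then cover only the spread among these 12 samples.

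MYBPC3 encodes cardiac myosin-binding protein C, a protein of the thick filament in the A-band of the heart muscle sarcomere. It binds myosin and actin, restrains the myosin heads and is released from that role in part by phosphorylation, and alterations of the gene are a common cause of inherited cardiomyopathy. HRC encodes a histidine-rich protein in the lumen of the sarcoplasmic reticulum that binds calcium and takes part in its storage and release. The comparison asks which transcripts differ with the deletion on average over the 2 HRC backgrounds, with HRC status and sex as terms of the model.

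Values are given in CPM, the read counts of a gene relative to the scaled total of its library, and differences are carriers minus non-carriers on the log2 scale as fitted by edgeR. Total counts ran from 15615182 to 20581197 per library, and 13849 genes were tested. Y-linked genes followed the sex labels, with at least 1756 reads in each male library and at most 10 in each female one. Heart muscle markers were high in every library, as with Myh6, the adult myosin heavy chain gene (292042 to 597325 reads), and Tnnt2, cardiac troponin T (124406 to 185237 reads). Several libraries stood apart. HRC variant library 3 and the 3 compound libraries lay at -2.38, -1.83, -2.40 and -1.26 on the mean log2 level of 23 atrial markers relative to the mean of all libraries, while the other 8 lay between 0.35 and 1.68. B-cell markers were high in nontransgenic library 2 (2.04) and MYBPC3 deletion library 2 (2.60), and heat shock genes in nontransgenic library 1 (0.72). In bulk tissue, fewer cells of a type and less RNA per cell cannot be told apart.

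Mybpc3 itself was transcribed in every heart. The gene, with identifier 17868, lies on the plus strand of chromosome 2 of GRCm38.p6 at 91118022 to 91136573. It had 4890, 3520 and 3630 CPM in the nontransgenic libraries and 2900, 3300 and 3850 CPM with the HRC variant. In the carriers it had 2460, 2920 and 2530 CPM with the deletion alone and 3530, 3660 and 3920 CPM in the compound hearts. Deletion libraries 1 and 3 were the lowest of the series, deletion library 2 lay beside the lowest HRC variant library, the compound hearts lay inside the non-carrier range, and the sides overlapped. The average log2 difference was -0.23 (SE 0.15), 0.854-fold with a 95% interval from 0.683 to 1.07, and it did not pass (edgeR adjusted p = 0.967). Counts for a whole gene do not show whether the 25 bp are present, and the level of Mybpc3 is therefore no check of the labelled genotypes. The second altered gene, Hrc, had a median of 1140 CPM in non-carriers (939 to 1380) and 1160 CPM in carriers (974 to 1230), a log2 difference of -0.02 (SE 0.12).

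Averaged over both backgrounds, few genes passed a test. edgeR's quasi-likelihood test called 1 gene at an adjusted p under 0.05, which is 0.00722% of those tested, and it was lower in carriers. At an unadjusted p under 0.05 there were 302 genes higher in carriers (2.18%) and 456 lower (3.29%), 758 or 5.47% in all. The median log2 difference of all tested genes was -0.02, with 54.3% of genes below zero. The median standard error of genes with a mean log2 CPM of at least 1 was 0.126, for which the 95% interval reached 0.27 on either side, or 1.21-fold. DESeq2 called 10 genes, 4 higher and 6 lower, and limma-voom called 0, with 742 at an unadjusted p under 0.05. The CPM ranges of the 6 carriers and the 6 non-carriers did not overlap for 17 genes higher in carriers (0.123%) and 16 lower (0.116%). These shares are near those that a random split of the libraries into sides of 6 would give. Ranges that do not overlap are therefore given below as a description, not as separate evidence for a gene.

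The called gene was LOC100044068, for which the deposited table gives Ifi202b as a further symbol. It lies at 24601 to 51858 on the plus strand of an unlocalized scaffold that RefSeq assigns to chromosome 1. Ifi202b belongs to the interferon-inducible p200 family, proteins with a HIN domain that binds DNA. It falls outside the rule for named genes and was singled out after its values were seen. It had 2, 27 and 30 reads in the nontransgenic libraries and 52, 40 and 68 with the HRC variant. In the carriers it had 0, 0 and 0 reads with the deletion alone and 1, 0 and 0 in the compound hearts. Every non-carrier was above every carrier, although nontransgenic library 1 was only just so. The summed reads were 219 against 1, or 1.92 against 0.0096 CPM, a ratio of 200 with a counting interval from 35.5 to 7930. That interval covers only the counting of pooled reads, not the spread between libraries. The fitted log2 difference was -6.90 (SE 0.81; edgeR adjusted p = 0.00872), a value that depends on the prior count since the carriers were near 0. The call ended when any one of 6 libraries was left out, with edgeR adjusted p of 0.0732 without nontransgenic replicate 3, 0.0574 without MYBPC3 deletion replicate 3, 0.0514 without HRC variant replicate 3, and 0.589, 0.0653 and 0.0615 without compound replicates 1, 2 and 3.

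The neighbours and relatives of this gene were not alike. On the same scaffold, LOC100862473, with Ifi203c as a further symbol, had 22, 118 and 154 reads in nontransgenic and 125, 289 and 365 in HRC variant libraries, against 22, 7 and 36 with the deletion and 35, 42 and 58 in compound hearts. Carriers were low, and so was nontransgenic library 1. The log2 difference was -2.25 (SE 0.40; edgeR adjusted p = 0.322), and DESeq2 called it (adjusted p = 1.8e-05). The third tested gene of the scaffold, LOC102641031, had 464 reads in non-carriers and 189 in carriers (-1.06, SE 0.34). The entry named Ifi202b on chromosome 1 itself was too low to be tested, with 44 reads summed over the non-carriers and 0 over the carriers. Among the non-carriers it was at 0 CPM in nontransgenic library 1, where the scaffold genes were low too.

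The other p200 genes, which sit side by side on chromosome 1, lay the other way. Of 13 entries there, 11 were tested, and 10 of these were higher in carriers, 4 of them at an unadjusted p under 0.05, where 2.18% of all tested genes were. Ifi208 had 3.04, 0.77 and 0 CPM in nontransgenic and 0.346, 0.419 and 0.111 CPM in HRC variant libraries, against 3.66, 1.14 and 2.98 with the deletion and 2.71, 2.81 and 1.17 in compound hearts. Nontransgenic library 1 sat among the carriers and the other 5 non-carriers lay below all carriers. Its log2 difference was 2.24 (SE 0.74; edgeR adjusted p = 0.832). The labels state no substrain and no breeding scheme, so for the scaffold genes, the p200 genes and their surroundings a difference in inherited background between mice and the deletion cannot be told apart. Mndal, a nuclear p200 protein gene, ran from 0.999 to 19.8 CPM in non-carriers and from 19.2 to 27.5 CPM in carriers, and again nontransgenic library 1 was the non-carrier that reached the carriers (1.12, SE 0.47). Ifi204 differed by 1.04 without the HRC variant and by 0.01 with it. Aim2, the DNA sensor of the family, was the tested member that was not higher (-0.28, SE 0.26). Reads of these close copies may be shared between entries, since no source used here states the counting rule.

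**Figure D1:**
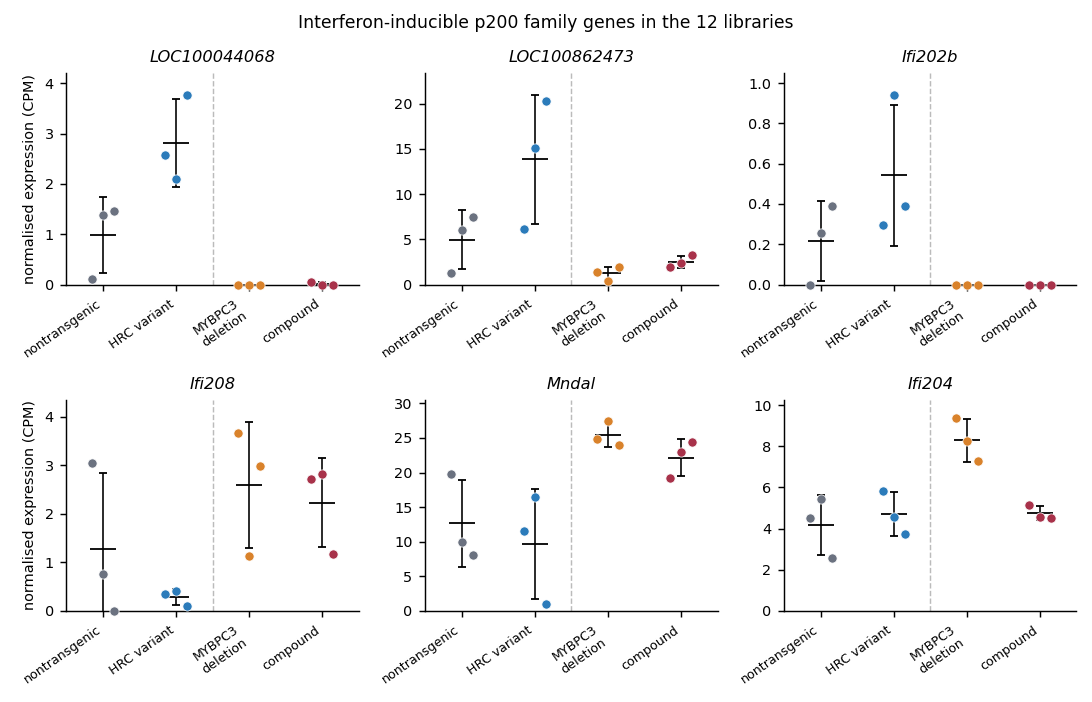
Normalised expression (CPM) of 6 p200 family genes by group, with each point 1 library, the horizontal mark the group mean and the bars 1 SD (n = 3). The dashed line parts the non-carriers (left) from the carriers (right). LOC100044068, LOC100862473 and Ifi202b are near 0 or low in carriers and in 1 nontransgenic library, and Ifi208 and Mndal are high in the same libraries.

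The p200 genes lie in the window with the largest share of nominal differences among windows with at least 20 tested genes. This scan was added after the data had been seen. Tested genes were counted in 10 Mb windows, and 224 windows held at least 20 of them. On chromosome 1 the window from 170 to 180 Mb held 91 tested genes, and 20 of them (22.0%) were at an unadjusted p under 0.05, of which 15 lay higher in carriers and 5 lower. The second share was 16.9% on chromosome 11 (13 of 77), the median window had 4.92%, and the tested genes of chromosomes outside the first window had 5.35%. Within the window, 13.2% of genes had an unadjusted p under 0.05 without the HRC variant, where 8.16% of all genes did. With it 17.6% did, where 6.3% of all genes did. The window was picked for its share in the average of these effects, so these shares are no second test. Besides 4 p200 genes, the 20 genes included the immune receptor genes Fcer1g (0.67, SE 0.25), Cd84 (0.66, SE 0.24) and Slamf7 (1.13, SE 0.49). They also included the muscle gene Casq1, skeletal calsequestrin (-1.43, SE 0.44). Pigm, described below, lies there as well, and Stum and Cnih4 lie next to it, at 180432373 and 181150345 on the same chromosome. The altered gene's own surroundings were near the background: within 10 Mb of Mybpc3 on chromosome 2, 4 of 75 tested genes (5.33%) had an unadjusted p under 0.05, and on chromosome 2 as a whole 54 of 1092 (4.95%).

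**Figure D2:**
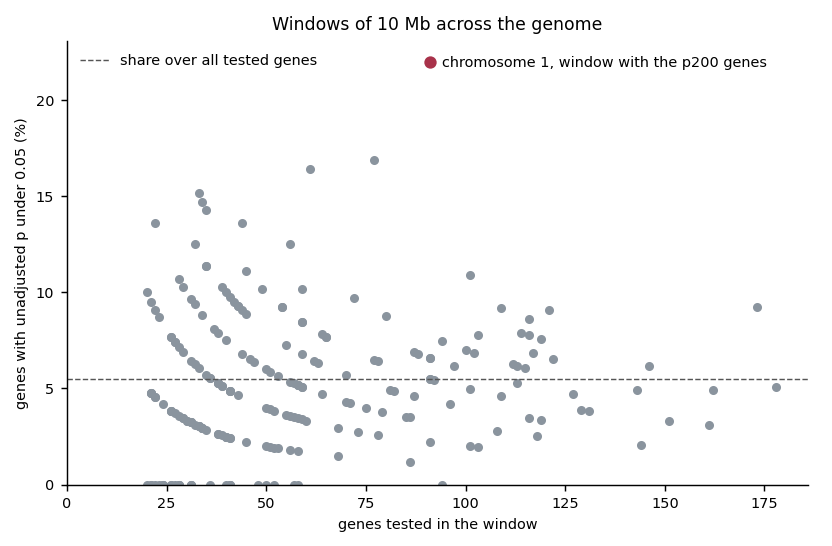
Share of tested genes with an unadjusted p under 0.05 (%) against the number of genes tested, for the 224 windows of 10 Mb with at least 20 tested genes. The dashed line is the share over all tested genes (5.47%). The chromosome 1 window stands at 22.0%, above the next window at 16.9%.

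Of the named genes lower in carriers, 3 encode enzymes or regulators of lipid and sugar metabolism and had the smallest p after the called gene. Acer2, the alkaline ceramidase of the Golgi that releases sphingosine from ceramide, had 35.6 to 46.1 CPM in non-carriers (median 40.9) and 22.8 to 31.4 CPM in carriers (median 28.2). Every carrier was below every non-carrier. It was 0.677-fold in carriers (95% interval 0.585 to 0.784), a log2 difference of -0.56 (SE 0.10; edgeR adjusted p = 0.238, DESeq2 adjusted p = 0.000352). The difference was nearly equal without (-0.56) and with (-0.57) the HRC variant. Thrsp, a nuclear regulator of fatty acid synthesis that responds to thyroid hormone, had 49.6, 79.5 and 50.9 CPM in nontransgenic and 75.3, 52.1 and 54.3 CPM in HRC variant libraries. It had 31.2, 42.6 and 25.2 CPM with the deletion and 33.3, 41.8 and 25.6 CPM in compound hearts. The sides did not overlap and the carriers were at 0.55-fold (0.438 to 0.689), with -0.86 (SE 0.15; edgeR adjusted p = 0.238, DESeq2 adjusted p = 0.000237). Without the HRC variant the difference was -0.88 and with it -0.85. Pgam1, phosphoglycerate mutase of glycolysis, had 123 to 141 CPM in non-carriers (median 128) and 79.9 to 106 CPM in carriers (median 95.9), again without overlap. It was at 0.722-fold (0.637 to 0.819), with -0.47 (SE 0.08; edgeR adjusted p = 0.238, DESeq2 adjusted p = 0.00015). Pgam1 has processed copies in the genome, with which its reads may be shared.

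The promoters of these 3 genes are shown because they had the smallest edgeR p of the named lower genes that met 2 conditions. Their ranges did not overlap and DESeq2 called them. Flywch1, described below, met both conditions with a larger p, so the 3 genes are not a set apart. Sequences are those of RefSeq for GRCm38.p6, from 250 bases before to 50 bases after the annotated start, 5′ to 3′ along the gene. Acer2 is at chr4:86874164-86874463 (plus strand), Thrsp at chr7:97417501-97417800 (minus strand) and Pgam1 at chr19:41911621-41911920 (plus strand). Capitals mark matches, on either strand, to ACGTG (the core bound by hypoxia-inducible and E-box factors), CCAAT (the CCAAT box) and GGGCGG (the GC box).
Acer2: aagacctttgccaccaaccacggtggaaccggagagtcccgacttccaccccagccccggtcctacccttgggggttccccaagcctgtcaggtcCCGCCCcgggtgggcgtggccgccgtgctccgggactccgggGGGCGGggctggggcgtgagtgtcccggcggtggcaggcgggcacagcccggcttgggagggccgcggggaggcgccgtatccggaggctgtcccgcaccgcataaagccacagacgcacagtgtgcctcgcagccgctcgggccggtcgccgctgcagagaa
Thrsp: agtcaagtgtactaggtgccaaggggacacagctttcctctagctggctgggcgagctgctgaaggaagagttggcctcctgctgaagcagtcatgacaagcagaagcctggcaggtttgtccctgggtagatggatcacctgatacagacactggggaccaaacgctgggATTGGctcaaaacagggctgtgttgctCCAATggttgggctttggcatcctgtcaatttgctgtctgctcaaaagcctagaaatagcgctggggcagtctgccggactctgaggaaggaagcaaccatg
Pgam1: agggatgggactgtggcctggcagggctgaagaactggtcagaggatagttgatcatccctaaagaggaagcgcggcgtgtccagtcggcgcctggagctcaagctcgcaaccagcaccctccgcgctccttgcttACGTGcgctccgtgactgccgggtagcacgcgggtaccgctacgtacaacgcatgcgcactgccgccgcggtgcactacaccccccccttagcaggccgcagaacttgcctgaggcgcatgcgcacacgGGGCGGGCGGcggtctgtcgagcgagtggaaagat
None of the 3 motifs searched was common to all 3 windows. Acer2 held 2 GC boxes, Thrsp 2 CCAAT boxes, and Pgam1 1 match to ACGTG and 2 overlapping GC boxes. Of 32851 promoters of the same length, 35.7% held a GC box, 37.4% a CCAAT box and 19.6% ACGTG on either strand. A match is a description of letters, not of a bound factor.

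Of the other 9 named genes lower in carriers, Flywch1 and Card10 also had ranges that did not overlap. Flywch1, a zinc finger protein gene, had 56.3 to 67.1 CPM in non-carriers and 40.5 to 54.7 CPM in carriers (-0.35, SE 0.08; edgeR adjusted p = 0.701, DESeq2 adjusted p = 0.0247). Card10, which encodes a scaffold of NF-kappaB signalling, had 44.2 to 55.7 CPM against 31.1 to 41.1 CPM (-0.39, SE 0.09). Sphk2, a kinase that phosphorylates the sphingosine that ceramidases release, had a median of 34.3 CPM in non-carriers and 28.9 CPM in carriers (-0.38, SE 0.10), and its ranges overlapped. Ckb, the brain-type creatine kinase, had 68.3 and 51.2 CPM (-0.42, SE 0.11). P4ha1, the collagen prolyl hydroxylase subunit, had 65.8 and 48.5 CPM (-0.42, SE 0.11). Ryr3, a ryanodine receptor calcium channel that is scarce in heart, ran from 1.83 to 10.4 CPM in non-carriers and from 1.33 to 2.78 CPM in carriers, with the most negative value of these 12 genes (-1.21, SE 0.31). Map3k6, a stress kinase (-0.62, SE 0.14), Rab30, a GTPase of the Golgi (-0.62, SE 0.16), and Sfi1, a centrosome protein gene (-0.59, SE 0.14), completed the 12. None of these 9 passed edgeR, and Flywch1 was the 1 that passed DESeq2.

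Of the 12 named genes higher in carriers, 4 passed DESeq2 and none passed edgeR. Stum, the homologue of a fly mechanosensory gene, had 2.66 to 8.52 CPM in non-carriers and 7.05 to 15.1 CPM in carriers (0.98, SE 0.21; DESeq2 adjusted p = 0.0251). Cnih4, a cargo adaptor of export from the endoplasmic reticulum, had a median of 45.5 CPM in non-carriers and 61.1 CPM in carriers (0.43, SE 0.09; edgeR adjusted p = 0.486, DESeq2 adjusted p = 0.00918). Within non-carriers it was higher in nontransgenic hearts (50.7 to 55.8 CPM) than with the HRC variant (36.4 to 40.2 CPM). Bcl2l11, the pro-apoptotic protein BIM, had 11.7 to 21.6 CPM in non-carriers and 19.3 to 27.3 CPM in carriers (0.63, SE 0.13; DESeq2 adjusted p = 0.0433). Its overlap came from nontransgenic library 3 at 21.6 CPM, since the other 5 non-carriers were at 13.8 CPM or below.

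Cradd, an adaptor of death-domain signalling, had 13.7 to 18.3 CPM in non-carriers and 19.6 to 23.3 CPM in carriers, without overlap (0.37, SE 0.09; edgeR adjusted p = 0.832). Pigm, a mannosyltransferase that builds the glycolipid anchor of membrane proteins, had 7.79 to 10.2 CPM against 10.3 to 14.7 CPM (0.45, SE 0.12). Itm2a, a membrane protein gene on the X chromosome, had 10.4 to 12.8 CPM against 14.4 to 20.8 CPM (0.38, SE 0.10). These 3 were the named higher genes whose ranges did not overlap. Retreg1, a receptor for autophagy of the endoplasmic reticulum, differed by 0.44 (SE 0.11), Cd200, an inhibitory ligand for myeloid cells, by 0.37 (SE 0.09), and the cytokine gene Il15 by 0.34 (SE 0.09). Trib2, a pseudokinase, differed by 0.41 (SE 0.10). Srp54b, a signal recognition particle subunit with close copies in the mouse genome, differed by 0.62 (SE 0.15) and is uncertain for that reason. edgeR's adjusted p was between 0.486 and 0.832 for the 12.

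**Figure D3:**
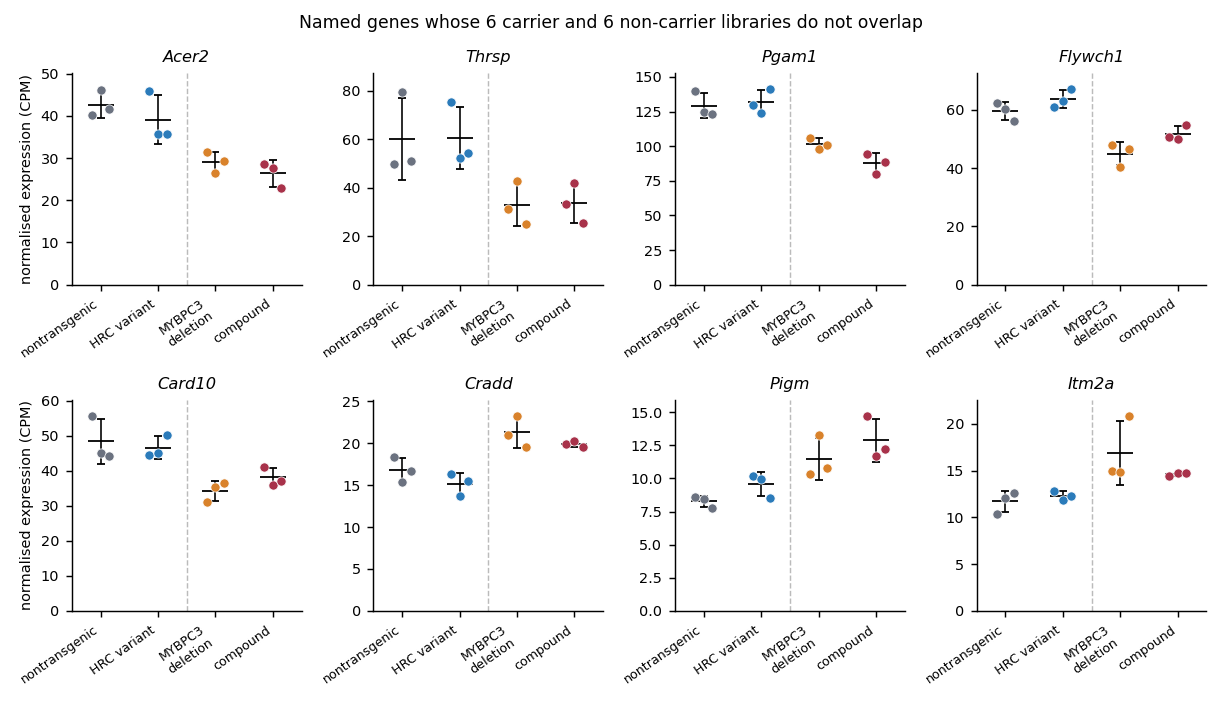
Normalised expression (CPM) by group of the 8 named genes whose carrier and non-carrier ranges did not overlap, with each point 1 library, the horizontal mark the group mean and the bars 1 SD (n = 3). The dashed line parts the non-carriers (left) from the carriers (right). Acer2, Thrsp, Pgam1, Flywch1 and Card10 are lower and Cradd, Pigm and Itm2a higher in all 6 carriers.

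Outside the named genes, the ranges stood apart for Thbd, the endothelial anticoagulant receptor thrombomodulin (86.4 to 96 CPM in non-carriers, 65.6 to 85.7 CPM in carriers), and for Sele, the endothelial adhesion molecule E-selectin (1.12 to 1.58 and 1.74 to 2.79 CPM). Bcar1, an adhesion scaffold (43.5 to 49.5 and 34.1 to 42.2 CPM), and Cct3, a chaperonin subunit (84.8 to 110 and 74.8 to 84.3 CPM), were lower in each carrier. Rhoa, the GTPase of the actin cytoskeleton, was higher in each carrier by a small amount (298 to 319 and 322 to 383 CPM). These 5 were chosen after their values were seen, and their edgeR adjusted p did not pass. For Rhoa the unadjusted edgeR p was 0.0553. Since chance alone would set the ranges apart for a similar share of genes, the gaps do not single these genes out.

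The average was set beside the deletion effect in each HRC background. The groups without the HRC variant held 2 males and 1 female each, and the groups with it 3 females each. For every split by HRC background given here, a part of HRC status and a part of sex therefore cannot be told apart. Without the HRC variant 1130 genes (8.16%) had an unadjusted p under 0.05, and with it 872 (6.3%), and edgeR called 0 in either (DESeq2 was not run for these single effects). The effects share no library, since one sets deletion hearts against nontransgenic hearts and the other compound against HRC variant hearts. Across the 13849 genes they had a rank correlation of -0.10 (Pearson -0.04), given as a description since genes are not replicates, and 45.7% of genes had the same sign. There were 80 genes at an unadjusted p under 0.05 in both. They are 7.08% of the first set, near the 6.3% of all genes, and 9.17% of the second, near the 8.16% of all genes. Of these 80, 36 (45%) had the same sign, 24 lower and 12 higher in carriers. These 36 included Acer2, Thrsp, Pgam1, Flywch1, Cradd and Pigm, which had been chosen for their average difference, so their place here is no second test. The difference of the effects had an unadjusted p under 0.05 for 1183 genes (8.54%), and 0 passed edgeR (smallest adjusted p 0.16), while DESeq2 called 50.

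**Figure D4:**
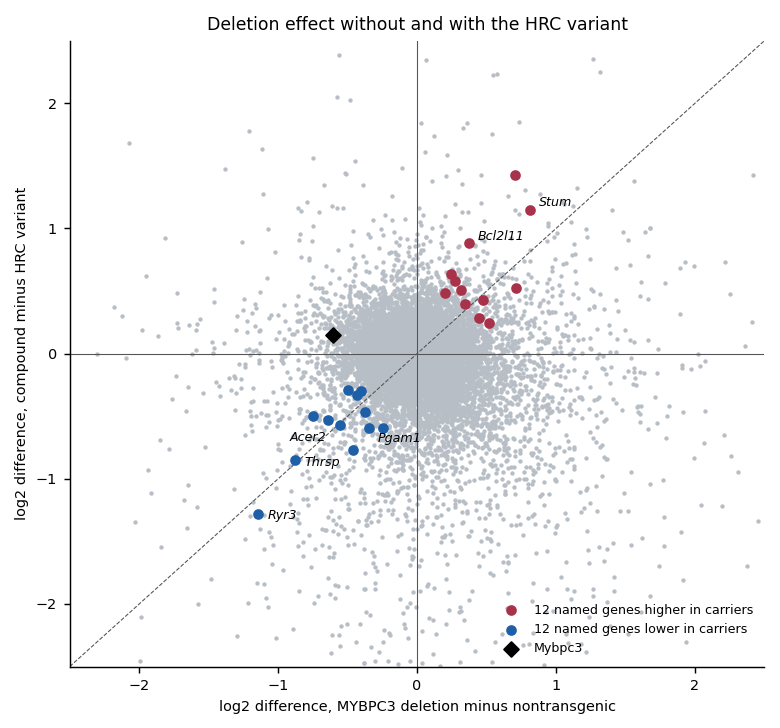
Log2 difference of each tested gene without (x axis) and with (y axis) the HRC variant. Grey points are 13712 tested genes, 137 lie beyond the limits of the axes, coloured points are the named genes, and the dashed line marks equal effects. The named genes, chosen for their average difference, lie in the upper right and lower left, and Mybpc3 lies at -0.60 and 0.15.

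Mybpc3 was among the genes whose 2 effects differed in sign, with -0.60 (SE 0.16) without the HRC variant and 0.15 (SE 0.16) with it. The difference of the effects was 0.75 (SE 0.23), with an unadjusted p of 0.00639 and an edgeR adjusted p of 0.517. Flt1, which encodes a VEGF receptor of the endothelium, gave -0.96 and 0.12 (edgeR adjusted p of the difference 0.336). The large genes Ubr4, a ubiquitin ligase (-0.61 and 0.17), and Htt, huntingtin (-0.81 and 0.10), gave similar values. In a list of 28 tested genes with very long transcripts, all 28 were lower without the HRC variant (median -0.40) and 5 were lower with it (median 0.09), and 15 had an unadjusted p under 0.05 for the difference of the effects, where 8.54% of all genes did. On average 27 of the 28 were lower (median -0.16). Lrp1, an endocytic receptor, was an exception in that both its effects were negative (-0.48 and -0.50). In mean log2 level the list of long transcripts lay at -0.43, -0.52 and -0.11 in deletion libraries 1, 2 and 3. In nontransgenic libraries 1, 2 and 3 it lay at -0.10, 0.09 and 0.22, so deletion library 3 was beside nontransgenic library 1. Whether transcript length or RNA quality had a part was not tested.

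Gene lists are described by the number of tested members on each side of zero and by the median, beside 54.3% lower and a median of -0.02 over all genes. Of the thick filament and M-band list, to which Mybpc3 belongs, 16 of 21 tested members were lower in carriers (median -0.13), 2 at an unadjusted p under 0.05, where 3.29% of all genes were. These were Obsl1, an obscurin-like protein of the M-band (-0.29, SE 0.11), and Mybpc2, the fast skeletal myosin-binding protein C (-0.49, SE 0.18). Ttn, titin, gave -0.12 (SE 0.14), Myh6 -0.21 (SE 0.13), Myom1, the M-band protein myomesin, -0.12 (SE 0.13), and Myl2, the ventricular light chain, 0.15 (SE 0.15). Without the HRC variant 17 of the 21 were lower (median -0.24), and with it 9 were (median 0.03). The 3 members with the most negative values, Myl4, Myl7 and Mybphl, are genes of atrial muscle. Myl7, the atrial regulatory light chain, had 0.999 CPM in HRC variant library 3 and 1.12 to 59.6 CPM in compound hearts, against 431 to 1350 CPM in the other 8 libraries.

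Of 21 tested genes of the Z-disc and of stretch sensing, 18 were lower (median -0.11). Flnc, the actin crosslinker filamin C, had 303 to 428 CPM in non-carriers (median 387) and 229 to 340 CPM in carriers (median 282), a difference of -0.43 (SE 0.12; edgeR adjusted p = 0.832) that was -0.71 without and -0.16 with the HRC variant. Myot, myotilin, had 46.2 to 79.6 CPM in non-carriers and 36.7 to 51.2 CPM in carriers (-0.50, SE 0.13). Thin filament genes were split, with 11 of 20 lower (median -0.02). Of the calcium release and uptake genes 20 of 33 were lower (median -0.03), 3 at an unadjusted p under 0.05, where 3.29% of all genes were. Casq1 was one of these, and Pln, phospholamban, the inhibitor of the calcium pump, was the member on the higher side at that level (0.30, SE 0.12), with 5330 to 8490 CPM in non-carriers and 6450 to 9280 CPM in carriers.

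Most markers of heart failure and hypertrophy had lower values in carriers, and none passed. Of 20 tested members 16 were lower, with a median of -0.19, and Rcan1, a target and inhibitor of calcineurin, was the 1 member lower at an unadjusted p under 0.05 (-0.23, SE 0.10), a share near the 3.29% of all genes. Nppb, B-type natriuretic peptide, had 123 to 383 CPM in non-carriers (median 244) and 86.6 to 358 CPM in carriers (median 136), with -0.69 (SE 0.33). Nppa, atrial natriuretic peptide, had 190 to 4890 CPM and 108 to 3650 CPM in the 2 sides. Its 4 low libraries were HRC variant library 3 and the 3 compound libraries, which were also low in atrial markers. Myh7, the slow myosin heavy chain, gave 0.09 (SE 0.46), and Acta1, skeletal actin, -0.62 (SE 0.36). Ankrd1 (-0.14, SE 0.13), Postn, periostin (-0.05, SE 0.32), and Ctgf, connective tissue growth factor (-0.24, SE 0.23), overlapped between the sides. The list's median was -0.02 without the HRC variant and -0.36 with it.

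Lists of other cell types are given here beside the atrial level of the libraries. All 23 tested atrial markers were lower in carriers (median -1.06), with a median of -0.17 without the HRC variant and -1.85 with it, and 6 of the 23 were at an unadjusted p under 0.05, where 3.29% of all genes were. Gja5, connexin 40 of atrium and conduction system, had 16 to 76.6 CPM in non-carriers and 10.9 to 40.1 CPM in carriers (-1.20, SE 0.39). The atrial level ran from -2.38 to 1.68 in non-carriers and from -2.40 to 1.04 in carriers. Fat cell markers (10 of 12 lower, median -0.92), mesothelial markers (11 of 12, -0.36) and skeletal muscle isoforms (9 of 11, -0.49) were also mostly lower, and ventricular markers were mostly higher (14 of 18, median 0.13). Fat cell markers ran from -1.83 in nontransgenic library 1 to 2.78 in nontransgenic library 2 in mean log2 level, and with the atrial level as a further term their median was 0.36, the other way. The median of ventricular muscle markers was -0.06 without the HRC variant, 0.20 with it and 0.01 with the atrial term. Fibroblast markers were lower in 16 of 18 (median -0.16), collagens in 17 of 19 (-0.09), and matrix proteins in 32 of 39 (-0.17). For these 3 lists the medians were 0.18, 0.13 and 0.09 without the HRC variant and -0.47, -0.40 and -0.42 with it. With the atrial level of each library as a further term, the median of fibroblast markers was 0.10, that of fibrillar and basement membrane collagens 0.07, that of matrix proteins and remodelling enzymes 0.09, that of mesothelial markers 0.21 and that of heart failure and hypertrophy markers -0.02. Skeletal muscle isoforms kept a lower median in all 28 settings, that term among them (-0.96 to -0.28). With the HRC variant, all 3 compound libraries were low in atrial level, and of the HRC variant libraries only library 3 was. There the atrial term and the deletion are parted by that library alone. Nppa and Nppb belong to both the atrial and the heart failure list. The part of tissue content in these differences was not tested further.

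Heat shock genes and chaperones were lower in 25 of 27 tested members (median -0.18), 25 without the HRC variant and 20 with it, and 5 of the 27 were at an unadjusted p under 0.05, where 3.29% of all genes were. Hsph1, a co-chaperone of the large HSP70 family, had 43.3 to 89.9 CPM in non-carriers (median 62.8) and 30.4 to 51.4 CPM in carriers (median 40.8), with -0.64 (SE 0.18). Hsp90aa1, the inducible HSP90, had 135 to 311 CPM and 110 to 192 CPM (-0.54, SE 0.17). Hspb1, a small heat shock protein, gave -0.39 (SE 0.14), and Hsf1, the factor that induces these genes, -0.21 (SE 0.09). Nontransgenic library 1 was the highest of all libraries for Hsph1 and Hsp90aa1. Without it the median of heat shock and chaperones was -0.12, and without it together with MYBPC3 deletion library 2 and HRC variant library 3 the median was -0.03.

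The lists of sugar and fatty acid use had medians of opposite sign on average, and of the same sign within each HRC background. Of the genes of glucose uptake and glycolysis 23 of 30 were lower (median -0.07), with 29 lower without the HRC variant (median -0.20) and 11 with it (median 0.07). Beside Pgam1, Pfkl, a phosphofructokinase subunit (-0.30, SE 0.11), and Hk1, a hexokinase (-0.21, SE 0.09), were lower at an unadjusted p under 0.05. These were 3 of the 30 members, where 3.29% of all genes were, and 1 member was higher, where 2.18% were. Of the genes of fatty acid uptake and oxidation 25 of 34 were higher (median 0.08), 4 of them at an unadjusted p under 0.05, where 2.18% of all genes were. They included Slc27a1, a fatty acid transporter (0.30, SE 0.12), Ucp3, a mitochondrial carrier (0.74, SE 0.31), and Slc25a20, the carnitine carrier (0.25, SE 0.11). With the HRC variant 0 of 34 were lower (median 0.24), while 23 were lower without it (median -0.06). With the atrial level as a term the median of fatty acid uptake and oxidation was -0.04. Respiratory chain genes were higher in 34 of 47 (median 0.05), and none reached an unadjusted p under 0.05.

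**Figure D5:**
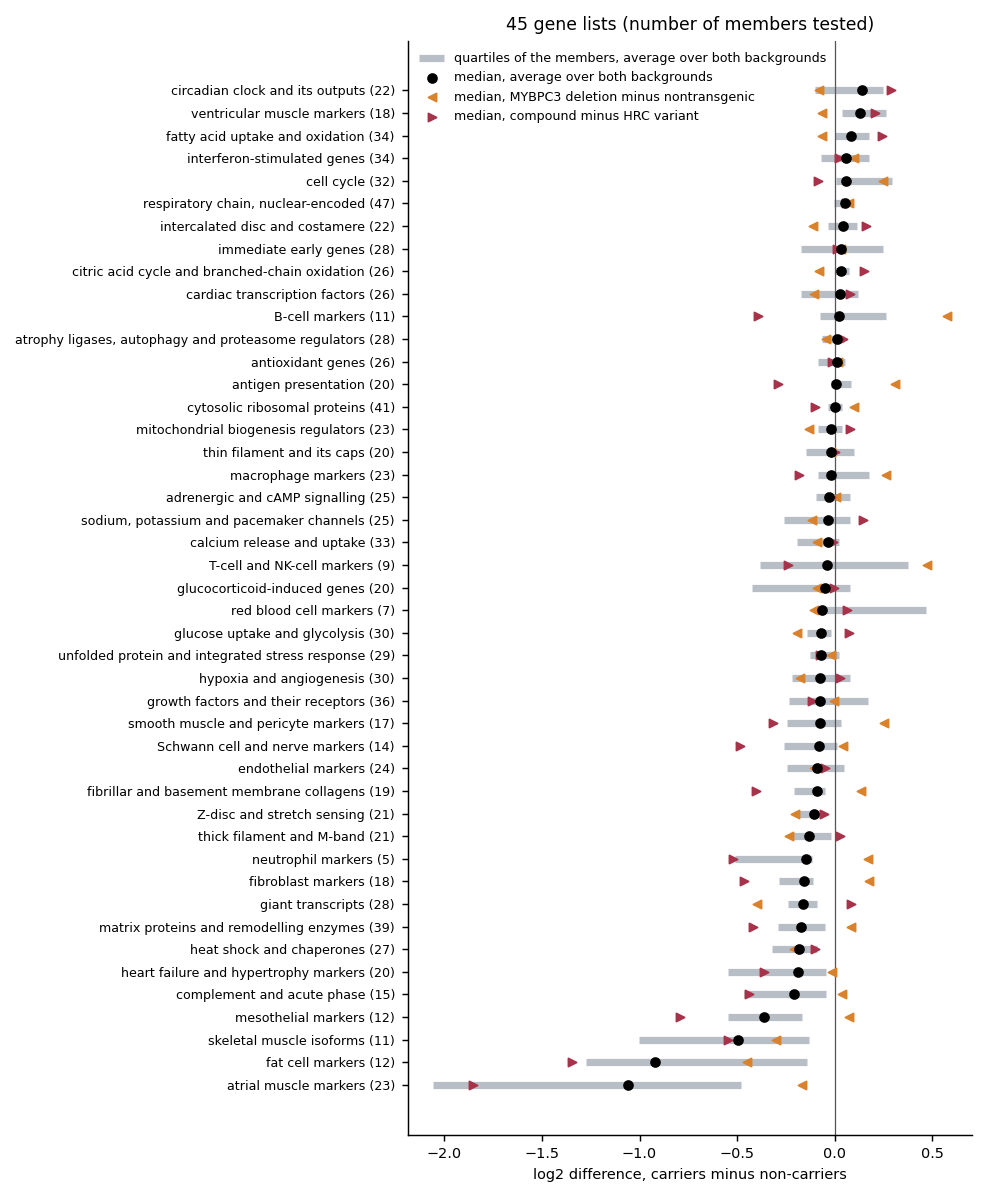
Log2 difference of carriers minus non-carriers for 45 gene lists, sorted by median. Black points are medians over the tested members, grey bars their quartiles, and triangles the medians without and with the HRC variant. Atrial muscle markers, fat cell markers and skeletal muscle isoforms lie lowest, and for fibroblast markers, collagens, antigen presentation and B-cell markers the triangles fall on opposite sides of 0.

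Immune lists gave no shared direction. Antigen presentation had a median of 0.01, with 0.31 without the HRC variant and -0.29 with it. B-cell markers were split the same way (0.57 and -0.39), with the high levels of 1 library on each side named above. Interferon-stimulated genes were higher in 22 of 34 (median 0.06), with Iigp1, an immunity-related GTPase, at 0.56 (SE 0.30) and none at an unadjusted p under 0.05. Complement and acute phase genes were lower in 14 of 15 (median -0.21), with C3, the central complement component, at -0.44 (SE 0.19), and medians of 0.03 without and -0.44 with the HRC variant. Ribosomal protein genes had a median of 0.00 and lay 0.10 higher without the HRC variant and 0.10 lower with it.

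Single genes of signalling, hormone-induced, immediate early and endothelial lists are given here, chosen for their small p. At an unadjusted p under 0.05, 4 of 36 growth factors and receptors were higher and 3 lower. Of 25 adrenergic and cAMP genes 1 was higher and 0 lower, and of 20 glucocorticoid-induced genes 1 and 3. Of 28 immediate early genes 1 and 2 were, and of 24 endothelial markers 0 and 4. Over all tested genes 2.18% were higher and 3.29% lower at that level. Agtr1a, the main angiotensin II receptor, had 40.3 to 58.8 CPM in non-carriers (median 53.4) and 49.5 to 90.1 CPM in carriers (median 73.6), with the 3 compound hearts highest (0.47, SE 0.13; edgeR adjusted p = 0.832). Adra1a, an alpha-adrenergic receptor, differed by 0.58 (SE 0.21) and Ednra, an endothelin receptor, by -0.33 (SE 0.13). Fkbp5, a chaperone that glucocorticoids induce, had 13.8 to 45 CPM in non-carriers and 10.9 to 17.6 CPM in carriers (-0.64, SE 0.17), while Klf9, a factor induced by the same hormones, differed by 0.28 (SE 0.10). Of 20 glucocorticoid-induced genes 12 were lower (median -0.05). Nr4a3, an immediate early nuclear receptor, gave -0.97 (SE 0.29) and Btg2, a growth-arrest gene of the same list, 0.47 (SE 0.15). Lyve1, a marker of lymphatic vessels and some macrophages, gave -0.46 (SE 0.15), and Eng, endoglin of the endothelium, -0.30 (SE 0.11). None of these passed edgeR over all genes.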

How the data were processed

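Expression was measured by mRNA sequencing in 12 mouse hearts, with oligo(dT) selection and DNA nanoball sequencing per the labels' protocols. The values the authors deposited are expected counts (estimated read numbers, 94.3% of them whole with no tolerance), 1 column a sample, per the file headers. HISAT, Bowtie2, DESeq2 and GRCm38.p6 appear in the submitters' processing notes. No source used here states their roles, versions or the counting rule, strand included. Overlapping and near-identical genes are thus uncertain, and all values of 10 tested genes equalled those of another gene.

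Of 17379 genes, 17267 identifiers matched RefSeq, and 25 symbols turned into dates were restored. Counts were rounded and analysed with edgeR 4.0.16 (R 4.3.3): genes kept by its filter (minimum count of 10; 3530 removed), TMM scaling, and a robust quasi-likelihood fit over all 12 samples with deletion, HRC variant and sex as terms (8 residual degrees of freedom, biological coefficient of variation 22.4%). A second fit held the product of deletion and HRC variant, and gave the effects in each background (7 residual degrees of freedom). Adjusted p-values are Benjamini-Hochberg over all genes. The fit was tested on simulated data. CPM are relative to the TMM-scaled library size.

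The comparison and the 46 gene lists were chosen with earlier results of these data known. The rule named Mybpc3 and Hrc, the 12 higher and 12 lower genes with the smallest p (mean log2 CPM of at least 1, without predicted or clone names and without genes of the Y chromosome, Xist or mitochondrial DNA), up to 4 members of each list, and any member of the thick filament and heart failure lists. Some genes that the rule names are not reported here. Alternatives covered model terms, HRC background, sex, scaling, filters, DESeq2 1.42.0, limma-voom (limma 3.58.1), a replicate block and each library left out.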

Additional observations from a re-analysis of the deposited data

Results flagged for a closer look

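In sides of 6 libraries, one library lay far from the other 5 in 10 of 56 tests over the altered genes, 23 of the 24 genes named for their difference and the scaffold genes. Chance marks about 1 in 20 such groups. Among non-carriers these were Bcl2l11 at 21.6 CPM in nontransgenic library 3 (others 11.7 to 13.8), Trib2 at 37.4 CPM in HRC variant library 3 (others 28.1 to 31.3) and Itm2a at 10.4 CPM in nontransgenic library 1 (others 11.9 to 12.8). Among carriers, MYBPC3 deletion library 2 was the lowest for Il15 (34.9 CPM, others 39 to 41) and the highest for Cradd (23.3 CPM, others 19.6 to 21) and Ckb (67.2 CPM, others 47.2 to 53.4). MYBPC3 deletion library 3 was the highest for Itm2a (20.8 CPM, others 14.4 to 15) and P4ha1 (63.7 CPM, others 43.9 to 50.9). Compound library 1 was the highest for Bcl2l11 (27.3 CPM, others 19.3 to 21.5) and, with 1 read, for LOC100044068 (0.0553 CPM, others at 0).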

How the results depend on the processing

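The 24 genes named for their difference kept their direction in all 672 values over 28 settings. These genes were chosen for their small p in the same libraries, which the settings reuse in whole or in part. A kept direction is therefore no separate support for them. The carrier comparison called 1 gene. It called 0 with the 4 groups as terms and the deletion effect averaged, 0 in samples with the HRC variant alone, 10 by DESeq2 and 0 by limma-voom. With single libraries left out it called 0 to 2. Among settings chosen after seeing the data, it called 3 without nontransgenic library 1, MYBPC3 deletion library 2 and HRC variant library 3 together, and 0 with the atrial level as a term and HRC variant library 3 left out. In samples without the HRC variant alone the 1 gene called was the predicted gene Gm8210, not LOC100044068. The difference of the 2 deletion effects called 0 genes, against 50 by DESeq2, 1 with the replicate block, and 0 to 5 with single libraries left out (5 without HRC variant replicate 1). With the replicate block the carrier comparison called 1 gene, LOC100044068 (edgeR adjusted p = 0.0479). Over 18 same-numbered pairs the correlation of deviations ran from -0.58 to 0.694, with 7 over 0.1. Pairs of unlike number spread as widely, from -0.715 to 0.72. With 3 samples a group, whose deviations are tied to one another, this cannot show whether replicate numbers pair the samples. Of 96 named genes with an unadjusted p under 0.05, 2 changed sign in some setting, Flt1 (0.12) and Htt (0.11) in samples with the HRC variant alone. Of the other named genes 61 did, Mybpc3 among them (0.15 in those samples). Of 1288 list medians 29 moved by more than the spread within groups. The causes of these changes were not tested. With 6 libraries a side, differences under about 1.21-fold lie within the 95% interval of a typical expressed gene.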
